A study of Mus musculus with 2 samples.

Results

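The AP-1 and EGR immediate early factors are 10 transcription factor genes, which were found by symbol in the deposited table of 13549 genes. They are the FOS genes *Fos*, *Fosb* and *Fosl2*, the JUN genes *Jun*, *Junb* and *Jund*, the related *Atf3*, and the zinc finger genes *Egr1*, *Egr2* and *Egr3*. All 10 were listed, and all 10 had at least 1000 reads over both libraries. They were measured by bulk RNA sequencing of microglia, the resident macrophages of nervous tissue, sorted from mouse retina at postnatal day 5. Every animal had the genotype CD11c-Cre-gfp;Rosa-TDTom, in which the promoter of CD11c drives Cre and GFP, and Cre switches on the TdTomato reporter for good. Cd11c-active cells had both colours (GFP+TdTom+, 4041 cells), and Cd11c-lineage cells had TdTomato without GFP (GFP-TdTom+, 5441 cells). The material of each group was taken over 8 retinas, 4 female and 4 male, so cells of several animals were mixed in its 1 library. Libraries were stranded and made from total RNA depleted of ribosomal RNA, so unspliced transcripts are also sequenced. No difference below has a replicate check, no test between the conditions was possible, and intervals on reads cover counting error only.

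FOS and JUN proteins pair through leucine zippers to form AP-1, which binds DNA at short palindromic sites, and ATF3 belongs to the same class of zipper proteins. EGR proteins bind GC-rich sites through zinc fingers. Many of these genes are called immediate early because a stimulus switches them on within minutes, without new protein synthesis. MAP kinases and the serum response factor are among the routes. In microglia such genes respond to receptor signalling in the tissue, and also to enzymatic dissociation and sorting of the cells. Both libraries went through the same preparation and no unsorted material was analysed here, so sorting stress and cell state cannot be told apart as sources of these transcripts.

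The Cd11c-active library held 12943998 reads and the Cd11c-lineage library 13402625. Levels are given in CPM, the usual depth-scaled read count, after TMM scaling between libraries, and ratios are Cd11c-active over Cd11c-lineage on the log2 scale. All 10 genes of a microglial marker list had reads in both libraries, at 205 to 6405 CPM in Cd11c-active and 233 to 6580 CPM in Cd11c-lineage, and their median log2 ratio was -0.02. Markers of other cells differed more. The 8 endothelial markers summed to 646 CPM in Cd11c-active and 73.7 CPM in Cd11c-lineage, where 5 of them were at 0 reads. The 5 pericyte markers summed to 62.8 CPM and were all at 0 in Cd11c-lineage. The 4 listed border macrophage markers summed to 21.2 and 128 CPM, with *F13a1*, *Lyve1* and *Cd163* at 0 in Cd11c-active. The 9 listed neuronal markers summed to 129 and 217 CPM, and the 5 listed Muller glia and astrocyte markers to 2434 and 2488 CPM. The latter sums were mostly *Glul* (2249 and 2369 CPM), and of these 5 genes 3 were past 2-fold higher, among them *Vim* (168 and 71.5 CPM), and 1 lower, *Slc1a3* (5.91 and 45.7 CPM). The 3 listed monocyte and neutrophil markers stayed under 8 CPM in sum. The erythroid *Hbb-bt* had 0 and 31 reads. In bulk samples, fewer cells of a type and less RNA per cell cannot be told apart.

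The members were abundant in both libraries. Together they took 120002 reads of the active library, or 0.927% of the library (exact Clopper-Pearson 95% interval 0.922 to 0.932), and 114689 of the lineage library, or 0.856% (0.851 to 0.861). The log2 ratio of the sum was 0.25 (0.24 to 0.26), and 0.12 when scaled to library totals alone. By CPM, 4 members were among the top 100 genes in Cd11c-active and 4 in Cd11c-lineage. *Egr1* ranked 21 and 24, and *Fos* ranked 33 and 39. *Junb* ranked 63 in Cd11c-active and 115 in Cd11c-lineage, and *Jun* 106 and 85. At the other end, *Egr3* ranked 2218 and 3359, and *Fosl2* 3907 and 3301.

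**Figure D1:**
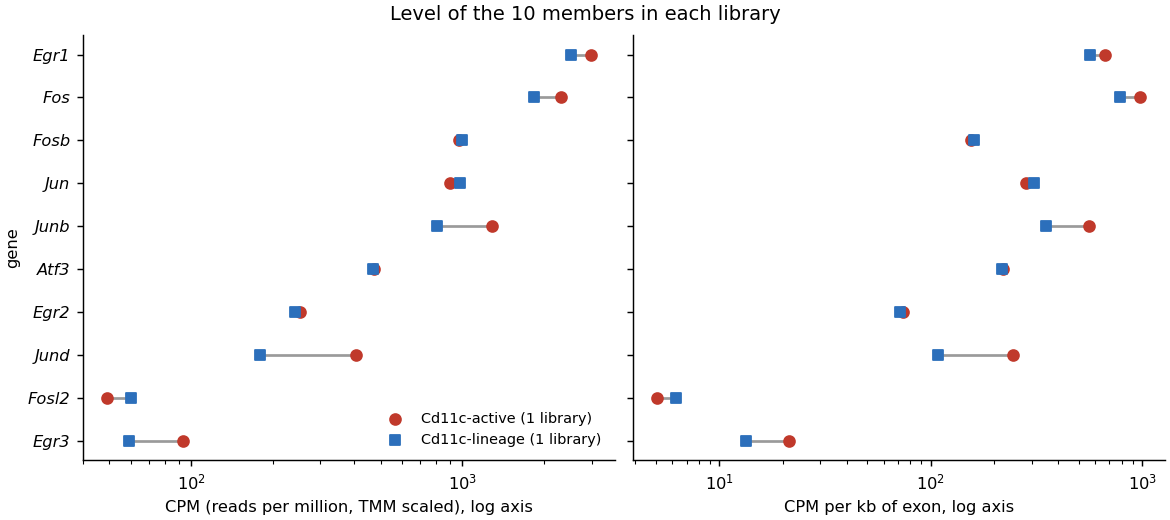
Level of each member in Cd11c-active (red circles) and Cd11c-lineage (blue squares), 1 library each, as CPM (left) and CPM per kb of exon (right), both on log axes; grey lines join the 2 values of a gene. *Egr1* and *Fos* lie far right in both libraries, and the widest gaps are those of *Jund*, *Junb* and *Egr3*.

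Between genes, levels were compared per kb of exon. *Fos* was first in both libraries (980 and 781 CPM per kb), followed by *Egr1* (664 and 564), *Junb* (561 and 350) and *Jun* (282 and 307). *Atf3* (220 and 218), *Fosb* (155 and 160) and *Egr2* (74.0 and 71.2) came below these, then *Egr3* (21.3 and 13.4) and *Fosl2* (5.07 and 6.23). The order was the same in both libraries except for *Jund*, which stood above *Atf3* and *Fosb* in Cd11c-active (244 CPM per kb) and below both in Cd11c-lineage (108). With 1 library a group the order has no spread over samples, and it depends in part on the length used. With the longest transcript as the length, *Junb* (714 CPM per kb) stood above *Egr1* (664) in Cd11c-active. *Fosb* then stood above *Atf3* in both libraries (256 over 239 in Cd11c-active, 265 over 236 in Cd11c-lineage) and above *Jund* (244) in Cd11c-active. The remaining neighbours kept their order under both lengths.

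The windows around the transcription starts of *Fos*, *Junb*, *Atf3* and *Egr2* are shown, 1 from each of the FOS, JUN, ATF and EGR groups. They hold matches to short promoter elements that are named below. They were chosen for holding these matches, not for abundance, and *Jun*, whose window had 0 matches to any motif searched, is not shown. The sequences are RefSeq promoter windows of GRCm38.p6, printed from 250 bases before to 20 after the annotated start, on the gene's own strand. Capitals mark TGACG (the core of a cyclic AMP response element, read as CGTCA on the other strand), TATAAA on either strand, and the CArG box bound by serum response factor. The *Fos* window is chr12:85473640-85473909 (plus strand), the *Junb* window chr8:84978729-84978998 (minus), the *Atf3* window chr1:191183314-191183583 (minus) and the *Egr2* window chr10:67537619-67537888 (plus).
Fos: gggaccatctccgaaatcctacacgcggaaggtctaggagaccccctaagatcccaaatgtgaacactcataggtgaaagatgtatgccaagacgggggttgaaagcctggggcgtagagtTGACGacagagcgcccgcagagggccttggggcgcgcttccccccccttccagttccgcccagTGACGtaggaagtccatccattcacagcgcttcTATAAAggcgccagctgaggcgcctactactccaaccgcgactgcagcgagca
Junb: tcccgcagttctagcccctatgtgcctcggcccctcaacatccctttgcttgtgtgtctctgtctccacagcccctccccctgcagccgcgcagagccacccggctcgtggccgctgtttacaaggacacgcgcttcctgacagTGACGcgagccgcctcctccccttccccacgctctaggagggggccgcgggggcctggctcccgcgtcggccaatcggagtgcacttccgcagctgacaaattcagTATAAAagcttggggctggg
Atf3: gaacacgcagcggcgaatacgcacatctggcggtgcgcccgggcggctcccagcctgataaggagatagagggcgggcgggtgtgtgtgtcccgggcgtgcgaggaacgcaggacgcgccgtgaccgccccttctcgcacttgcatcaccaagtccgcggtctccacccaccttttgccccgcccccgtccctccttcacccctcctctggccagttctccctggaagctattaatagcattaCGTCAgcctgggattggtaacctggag
Egr2: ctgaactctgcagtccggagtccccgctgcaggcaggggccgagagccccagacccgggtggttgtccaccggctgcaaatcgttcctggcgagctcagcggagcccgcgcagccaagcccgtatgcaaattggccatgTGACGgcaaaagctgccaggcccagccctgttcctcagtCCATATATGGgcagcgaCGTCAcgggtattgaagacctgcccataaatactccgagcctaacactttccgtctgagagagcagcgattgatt

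In *Fos*, TGACG began at -129 and -66 and TATAAA at -33, counted in bases from the start. In *Egr2* TGACG began at -111 and -55 with the CArG box at -72 between them, and in *Atf3* TGACG began at -7. In *Junb* TGACG began at -106 and TATAAA at the RefSeq start itself, which lies 30 bases from the nearest GENCODE start. RefSeq windows were given for 8 of the 10 members (not *Egr1* and *Egr3*). The RefSeq starts of *Fosl2* and *Jund* lie 299 and 1210 bases from the nearest GENCODE start of the gene. Their windows were not used, which leaves 6 genes. Searched over the whole 300 bases, TGACG was in at least 1 window of 5 of the 6 (*Atf3*, *Egr2*, *Fos*, *Fosb* and *Junb*), against 20.8% of all 32851 windows. TATAAA was in *Fos* and *Junb*, against 13.6% of windows, and the CArG box in *Egr2*, against 1.63%. The EGR motif GCGNGGGCG was in *Fosb*, against 5.55%. The full palindrome TGACGTCA, which contains TGACG, and the AP-1 motif TGANTCA were in 0 of the 6, against 1.79% and 7.81%. These are matches of letters on both strands in these windows and say nothing of binding.

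Of 3 transcript features that played no part in how the members were chosen, 1 was found in all 10 and the others in some of them. *Jun*, *Junb* and *Jund* each have 1 exon in their longest GENCODE transcript, as do 12.5% of the listed genes, so their spliced and unspliced RNA look alike in counts. All 10 have the pentamer ATTTA in the 3′ untranslated region, a motif of short-lived mRNAs, against 71.3% of 11869 listed genes with such a region. Their median was 2.51 per kb, with a range from 0.466 in *Fosb* to 4.91 in *Fos*, and the median over listed genes was 1.30 per kb. The longer AU-rich motif TTATTTATT was in *Fos* and *Fosl2*, against 8.26% of the genes. It is printed in capitals to show the element itself, with 6 bases on each side.
Fos: ttcaatTTATTTATTaagatg
Fosl2: attttaTTATTTATTttaaat

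Between the libraries, 1 of the 10 members was at least 2-fold higher in Cd11c-active, and 0 were at least 2-fold lower. Among all 4619 genes with at least 1000 reads, 5.43% were past 2-fold higher and 4.14% past 2-fold lower. Among the 13037 genes with at least 20 reads these shares were 23.3% and 21.6%. In either direction the shares were 9.57% and 44.9%. The median log2 ratio of the members was 0.15 (7 above 0, 3 below), and that of genes with at least 1000 reads was -0.02 with a robust SD of 0.53. After removal of the length and GC trend described below, the members' median was -0.0024. The single gene past 2-fold was *Jund*. The other 9 had ratios from -0.30 (*Fosl2*) to 0.68 (*Junb*).

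**Figure D2:**
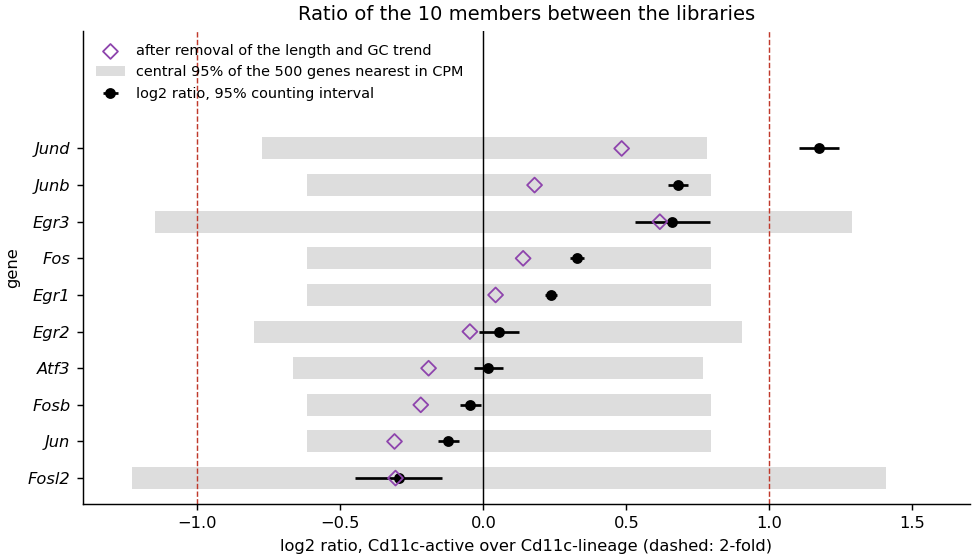
Log2 ratio of each member, Cd11c-active over Cd11c-lineage (black points, bars are 95% counting intervals), the same after a fitted length and GC trend is removed (open diamonds), and the central 95% of the 500 genes nearest in CPM (grey). *Jund*, at 1.17, is outside its grey range and past the dashed 2-fold line, and its diamond, at 0.48, is inside both.

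Of the FOS genes, *Fos* itself, the inducible AP-1 subunit, had 28466 reads in the active library and 25815 in the lineage library (2306 and 1837 CPM). Its log2 ratio was 0.33 (counting interval 0.30 to 0.35). This was less than the robust SD of 0.35 among the 500 genes nearest in CPM. For so abundant a gene these ran from 303 to 10755 CPM, so they were not all of like abundance. *Fosb*, a FOS relative with a short splice form that builds up after repeated stimulation, had 11975 and 14064 reads (970 and 1001 CPM). Its ratio was -0.05 (-0.08 to -0.01), so under TMM its level was nearly the same in both libraries. The ratio was -0.18 under library totals and -0.22 after the length and GC trend was removed. *Fosl2*, which encodes FRA-2, had 606 and 847 reads (49.1 and 60.3 CPM) and a ratio of -0.30 (-0.45 to -0.14). The SD among genes of its abundance was 0.69, larger than this difference. By reads per kb, *Fos* made up 85.9% of the FOS genes in Cd11c-active and 82.4% in Cd11c-lineage, and *Fosb* 13.6% and 16.9%.

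The JUN genes differed among themselves. *Jun*, the partner of FOS in classical AP-1, had 11116 and 13773 reads (900 and 980 CPM), a log2 ratio of -0.12 (-0.16 to -0.09). *Junb*, whose product is a weaker activator than JUN on many promoters, had 15938 and 11305 reads (1291 and 805 CPM), a ratio of 0.68 (0.65 to 0.72). *Jund*, the JUN gene that most cells express without stimulation, had 5020 and 2535 reads (407 and 180 CPM), a ratio of 1.17 (1.10 to 1.24). *Jun* was thus slightly lower in Cd11c-active, *Junb* higher and *Jund* more than 2-fold higher. Of the 500 genes nearest in CPM, 33.0% had a lower ratio than *Jun*, 96.2% a lower one than *Junb* and 99.4% a lower one than *Jund*. *Jund* lay outside the central 95% of its neighbours (-0.77 to 0.78), and *Junb* lay inside (-0.62 to 0.79). The neighbours of *Jund* ran from 217 to 396 CPM, and those of *Junb* from 297 to 3567 CPM.

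Ratios between JUN genes inside a library do not depend on the scaling between libraries. There were 0.452 reads of *Jund* for each read of *Jun* in Cd11c-active and 0.184 in Cd11c-lineage, a log2 difference of 1.29 (1.22 to 1.37). For *Junb* over *Jun* the values were 1.43 and 0.821, a difference of 0.80 (0.75 to 0.85), and for *Jund* over *Junb* 0.315 and 0.224, a difference of 0.49 (0.41 to 0.57). By reads per kb of exon, *Jun* held 26.0% of the JUN genes in Cd11c-active and 40.2% in Cd11c-lineage. *Junb* held 51.6% and 45.7%, and *Jund* 22.4% and 14.1%. The share of *Jun* was the one that was smaller in Cd11c-active. In Cd11c-lineage *Junb* held more than *Jun* per kb of the longest transcript too (51.7% and 35.7%), while by reads not divided by length *Jun* held 49.9% and *Junb* 40.9%.

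**Figure D3:**
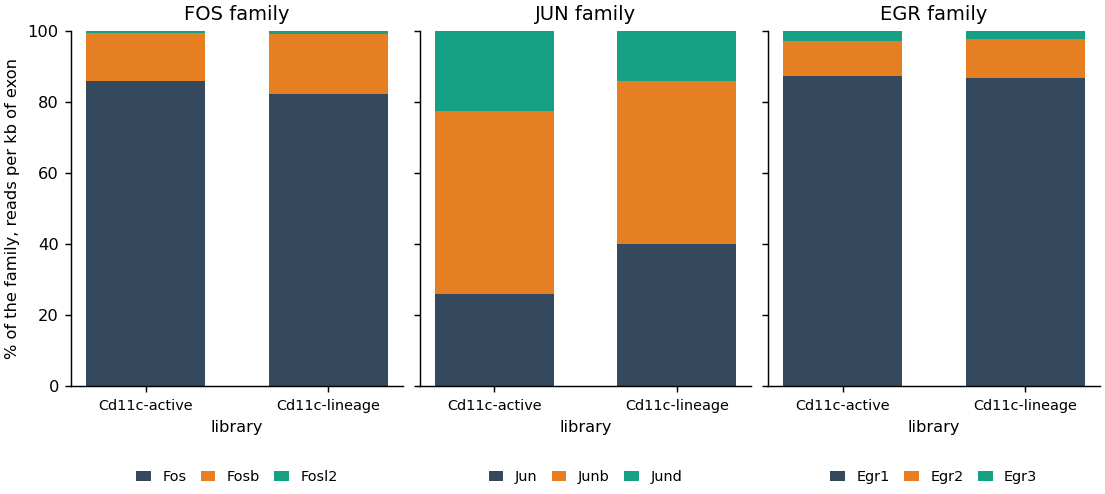
Share of each gene in its family by reads per kb of exon, in percent, in the 1 library of each group. The FOS and EGR bars look alike in both libraries, with *Fos* and *Egr1* as the largest parts, while *Jun* takes 26.0% of the JUN bar in Cd11c-active and 40.2% in Cd11c-lineage.

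Within the JUN genes, GC content rose with the ratio. The longest transcripts had 55.5% GC in *Jun*, 62.6% in *Junb* and 67.1% in *Jund*, against a median of 49.4% over genes with at least 1000 reads. The 200 such genes nearest to *Jund* in GC had a median log2 ratio of 0.31, and 17.5% of them were past 2-fold higher. After the fitted trend with transcript length and GC was removed, the ratios were -0.31 for *Jun*, 0.18 for *Junb* and 0.48 for *Jund*, so *Jund* was no longer past 2-fold. With the median of the genes nearest in GC removed, an alternative chosen after seeing the data, *Jund* was at 0.86. The order of the 3 genes was the same each time. In the other members GC content and ratio did not rise together. *Egr3* had the lowest GC content (51.3%) and a ratio of 0.66, or 0.62 after trend removal. Next in GC content came *Egr2* (51.4%, ratio 0.06), *Fos* (51.9%, 0.33) and *Atf3* (52.2%, 0.02). *Fosl2* (53.1%, -0.30), *Fosb* (56.0%, -0.05) and *Egr1* (57.3%, 0.24) had more. Whether GC content caused any of these ratios was not tested. The endothelial and pericyte markers, also higher in Cd11c-active, are given above, and their part in the *Jund* and *Junb* ratios was not tested. GENCODE places an antisense gene over *Jund* (*Gm11175*, 58 and 0 reads) and the coding gene *Prdx2* opposite part of *Junb* (988 and 693 reads). The library kit keeps the strand, but the strand setting used in counting is not given in the sources used here, so reads in such overlaps could not be assigned with certainty.

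*Atf3*, a stress-induced member of the zipper class that often acts as a repressor, had 5859 and 6587 reads, or 475 and 469 CPM. Its log2 ratio was 0.02 (-0.03 to 0.07). The counting interval of this stress gene spanned 0. The sign of so small a ratio depended on the scaling, and it was -0.12 under library totals.

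Among the EGR genes, *Egr1*, an early sensor of growth factor and receptor signalling, had the most reads of any member, with 36763 and 35532 (2978 and 2529 CPM). Its log2 ratio was 0.24 (0.21 to 0.26), within the SD of 0.35 of its neighbours, which ran from 303 to 10755 CPM. The ratio was 0.10 under library totals and 0.04 after the length and GC trend was removed. *Egr2*, known in macrophages and in myelinating glia, had 3103 and 3399 reads (251 and 242 CPM) and a ratio of 0.06 (-0.02 to 0.13). This too turned to the other sign under library totals (-0.08). *Egr3*, which EGR1 and calcium signals can induce, had 1156 and 832 reads (93.6 and 59.2 CPM). Its ratio was 0.66 (0.53 to 0.79), against a neighbours' SD of 0.62 and a central 95% from -1.15 to 1.29. *Egr1* made up 87.5% of the EGR genes per kb in Cd11c-active and 87.0% in Cd11c-lineage, and *Egr3* 2.80% and 2.07%.

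**Figure D4:**
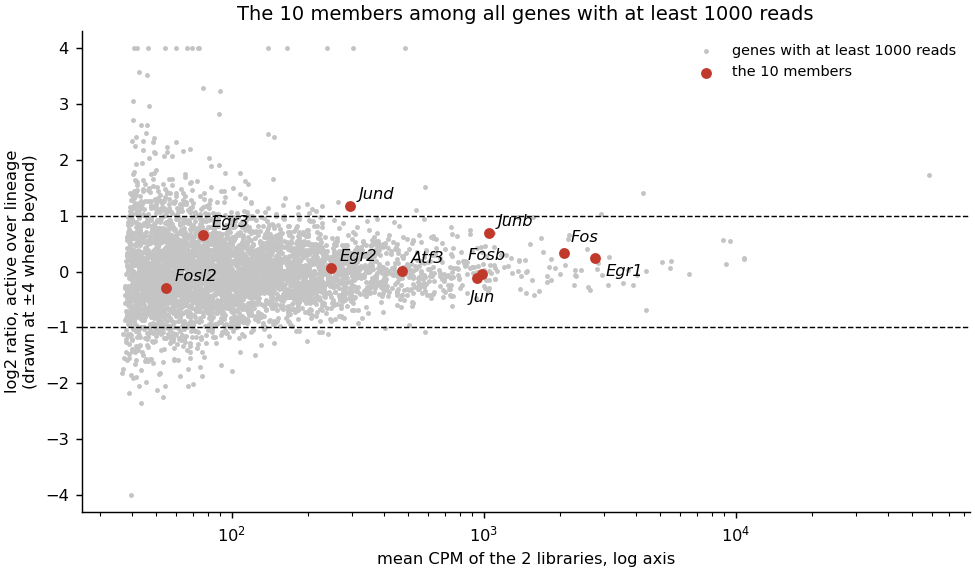
Log2 ratio against mean CPM (log axis) for genes with at least 1000 reads (grey), with the 10 members in red; dashed lines mark 2-fold. The grey cloud narrows to the right, and *Jund* is the 1 red point beyond a dashed line.

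The authors' deposited table gives log2 fold changes of 1.04 for *Jund*, 0.55 for *Junb*, 0.52 for *Egr3*, 0.19 for *Fos* and 0.10 for *Egr1*. For *Egr2*, *Atf3*, *Fosb*, *Jun* and *Fosl2* the authors' deposited table gives -0.08, -0.12, -0.18, -0.26 and -0.43. These are relative to library totals, which lie 0.14 below the TMM ratios for every gene.

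Relatives of the members in the zipper and zinc finger classes, and the genes around them in the pathway, were followed as lists. Of the 20 listed other AP-1, ATF, MAF, CREB and EGR genes, 4 were past 2-fold higher and 0 past 2-fold lower, with a median log2 ratio of -0.15. Among those with the most reads were *Bach1*, a heme-sensitive repressor (4156 and 4434 reads, ratio 0.09), and *Maf* (3452 and 4408, -0.17). The 4 past 2-fold, named after their values were seen, were *Jdp2* (221 and 50 reads), *Atf5* (153 and 38), *Batf3* (39 and 14) and *Egr4* (79 and 0). A 0 in 1 of the libraries was common at such counts, in 71.0% of all genes with 50 to 99 reads, the bin of *Batf3* and *Egr4*. It was found in 37.9% of genes with 100 to 199 reads, the bin of *Atf5*, and in 10.1% of those with 200 to 399, the bin of *Jdp2*.

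Upstream, all 21 genes of the SRF and MAP kinase list were measured, with a median of -0.05, and 4 were past 2-fold higher and 1 lower. *Rps6ka1*, a kinase below ERK, had the most reads (4089 and 5327, ratio -0.19), and *Mapkapk2*, below p38, had 3524 and 3931 (0.03). *Map3k1*, an activator of the JNK branch that phosphorylates JUN, had 1808 and 4356 reads and a ratio of -1.08. *Map2k2* and *Mapk3*, which encode MEK2 and ERK1, had 1393 and 601 reads (1.40) and 2112 and 1133 reads (1.08). After the length and GC trend was removed *Mapk3* (0.73) and *Map3k1* (-0.98) were short of 2-fold and *Map2k2* (1.02) was not.

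Feedback genes that end the response ranged from 0.162 to 1383 CPM in Cd11c-active and from 5.55 to 1169 CPM in Cd11c-lineage. Of 17 listed feedback inhibitors, 1 was past 2-fold higher and 1 lower, with a median of 0.21. The 3 with the most reads were *Zfp36*, *Btg2* and *Dusp1*. *Zfp36*, which destroys AU-rich mRNAs, had 17070 and 16419 reads (ratio 0.24). *Btg2* had 11178 and 11275 (0.17), and *Dusp1*, a MAP kinase phosphatase, had 7994 and 8589 (0.08). The 1 higher gene was *Dusp2*, another such phosphatase (2733 and 1365 reads, ratio 1.19), which was at 0.77 after trend removal. The 1 lower gene, *Dusp4*, had 2 and 78 reads.

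Of 26 other listed immediate early genes, 4 were past 2-fold higher and 2 lower, with a median of 0.24. The survival gene *Mcl1* (12941 and 14704 reads, 0.00), *Rhob* (13773 and 11592, 0.44) and *Klf6* (8722 and 10818, -0.12) had the most reads. *Cebpb*, a zipper factor of myeloid cells, was the 1 gene of the list past 2-fold with at least 1000 reads (892 and 349, ratio 1.54), and was at 0.84 after trend removal.

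Genes known to mark stress and activation of isolated cells were mostly within 2-fold. Of 11 listed heat shock and chaperone genes, 0 were past 2-fold higher and 1 lower (*Hspe1*, 130 and 405 reads), with a median of 0.18. *Hsp90ab1* (18099 and 17938 reads, 0.20), *Hspa8* (16891 and 18989, 0.02) and *Hspa5* (14448 and 11965, 0.46) led it. The inducible heat shock genes *Hspa1a* and *Hspa1b*, named after their values were seen, had 294 and 407, and 142 and 302 reads. Their ratios were -0.28 and -0.90. Of the rest, *Hsph1* (0.53), *Dnajb1* (0.37), *Hsp90aa1* (0.22) and *Dnaja1* (0.18) were above 0, and *Hspd1* (-0.30) was below. Of 16 cytokine and activation genes, 1 was past 2-fold higher (*Cxcl10*, 798 and 174 reads) and 0 lower, with a median of 0.31. *Cd83* (5129 and 4175 reads, 0.48), *Nfkbiz* (4324 and 4586, 0.10) and *Il1a* (3872 and 4119, 0.10) had the most reads. Of 6 listed textbook AP-1 targets, 0 were past 2-fold higher and 2 lower, with a median of -0.18. Over the 4 of them with at least 1000 reads the median had the other sign, 0.47. *Spp1* had 2721 and 2138 reads (0.53) and *Plau* 1291 and 1103 (0.41). The lower ones were *Ccnd1*, which encodes cyclin D1 (650 and 1662 reads, -1.17), and *Mmp9* (0 and 81). All counts in these lists stand beside the 23.3% and 21.6% of all genes with at least 20 reads, whose median was 0.01.

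**Figure D5:**
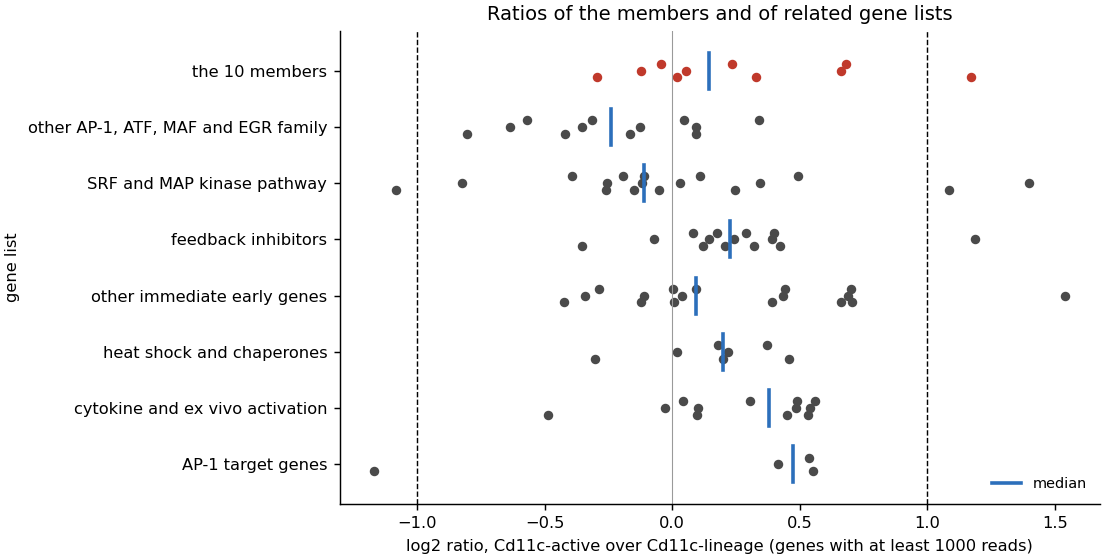
Log2 ratio, Cd11c-active over Cd11c-lineage, of the 10 members (red) and of genes with at least 1000 reads in 7 related lists (grey points, 1 per gene), with each group's median in blue and 2-fold dashed. Most points lie between the dashed lines, and those beyond them are *Jund*, *Dusp2*, *Cebpb*, *Map2k2* and *Mapk3* to the right and *Map3k1* and *Ccnd1* to the left.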

How the data were processed

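The 10 members, and the lists beside them, were chosen with earlier results of these data known. The authors deposited raw read counts per gene, 1 column a library, per the file headers. No gene had under 6 reads over both. The submitters' processing notes name cutadapt 3.5, STAR 2.7.9a, featureCounts 1.6.3, edgeR 4.0.16 and GRCm39, and the annotation, strand setting and treatment of duplicate reads are not given in the sources used here. A log2 average CPM and a log2 fold change stand beside them, deposited by the authors. No column belonged to an unmapped sample (0).

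From the counts, TMM factors (0.954 for the active and 1.05 for the lineage library) came from edgeR 4.0.16 under R 4.3.3. The log2 ratio used reads plus 0.5. Its 95% interval is the exact Clopper-Pearson interval of the split of reads. With 1 library per group no model with residual degrees of freedom exists, so no p-value is given, and a gene counts as past 2-fold where its log2 ratio is 1 or more, or -1 or less, on at least 20 reads. Where a gene is at 0 reads, up to 3 are allowed for, which is 0.243 CPM in the active and 0.214 CPM in the lineage library. Since reads carry no molecular identifiers, they are not counts of molecules and intervals and floors cover counting error only. The spread of the 500 genes nearest in mean CPM (robust SD from the median absolute deviation, central 95%) therefore stands beside the intervals. It takes most genes as alike between the libraries. For the most abundant members the 500 genes span a wide range of CPM, and spread falls as CPM rises.

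Exon length, GC content, exon number, 3′ untranslated regions and overlapping genes came from GENCODE M21 on GRCm38, not the build of the counts, and matched 13501 genes (99.6%). The trend with length and GC was a quadratic fit on genes with at least 1000 reads. Alternatives were library totals, RLE factors, scaling on microglial markers, scaling without ribosomal, mitochondrial, 7SK and 7SL genes, a prior count of 2, other read minimums and trend removal. The ratio, interval and call were tested on simulated data that held counting error only. The wider spread of the real libraries was not simulated, so the 2-fold call was not checked against it. Named genes are the members, the 3 genes of each list with the most reads, and the 3 farthest past 2-fold each way with at least 1000 reads. Of the genes this rule names, 1 is not reported here. Likeness of pattern was not measured, since 2 libraries give 1 ratio per gene. Computation used Python 3.11.15, numpy 2.4.6, scipy 1.17.1, pandas 2.3.3 and matplotlib 3.10.9.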

Additional observations from a re-analysis of the deposited data

How the results depend on the processing

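*Jund* was past 2-fold under TMM (1.17) and under 5 of 7 alternatives, among them library totals (1.04). It was short of 2-fold after the length and GC trend was removed (0.48) and with the median of genes nearest in GC removed (0.86), and the number of members past 2-fold was then 0. The cause was not tested. The summed reads of the 10 members had a log2 ratio of 0.12 under library totals and 0.19 when scaled on microglial markers. With at least 1000 reads, 9.57% of genes were past 2-fold in either direction, against 44.9% with at least 20. The sign was kept for 8 of the 10 members under all 7 alternatives, and that of *Atf3* and *Egr2* changed under library totals, microglial scaling and trend removal. Depth limits *Egr3* and *Fosl2* most, at 1988 and 1453 reads in all. No paired analysis was possible because each group has 1 library.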

Other observations

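Among the related lists, *Cebpd*, a zipper factor of the acute response, had 445 reads in the active and 26 in the lineage library. Its log2 ratio was 4.26 (95% counting interval 3.71 to 4.91), and 4.20 after the trend with length and GC was removed. Of the 500 genes nearest in CPM, 97.0% had a lower ratio, and their central 95% ran from -2.32 to 5.12, so *Cebpd* lay within the spread of genes of its abundance. *Cxcl10*, an interferon-induced chemokine, had 798 and 174 reads and a ratio of 2.38, just beyond the central 95% of its neighbours (-1.50 to 2.23). *Map3k1*, at -1.08, lay below the central 95% of its neighbours (-0.80 to 0.89), of which 0.6% had a lower ratio. *Cebpd*, *Cxcl10* and *Map3k1* were chosen here after their values were seen. *Dusp2* (1.19), *Map2k2* (1.40) and *Mapk3* (1.08) also lay above the central 95% of their neighbours, and *Ccnd1* (-1.17) lay below it. The endothelial markers, which stood at 646 and 73.7 CPM in sum, were higher in the library with more *Cebpd* and *Cxcl10*, and their part in these ratios was not tested.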
